A study of Mus musculus with 16 samples.

Results

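Cortical libraries from 5 female THY-Tau22 mice were compared with libraries from 3 female wild-type (WT) littermates, all at 17 months of age. These 8 libraries were chosen by sex and genotype from the 16 of the series, and held 13830 of its 28530 cells with 200 to 7000 detected genes. THY-Tau22 mice are heterozygous for a human 4-repeat tau transgene with the G272V and P301S mutations, driven in neurons by the Thy1.2 promoter, on a background crossed to C57Bl6/J. WT mice came from the same crosses and lacked the transgene. The whole neocortex of 1 perfused hemisphere was dissociated with an enzymatic kit and sequenced by Drop-seq, in which barcoded beads in droplets mark the cell of origin of each transcript and, through a unique molecular identifier (UMI), the molecule itself. Libraries were further divided by the S number in each sample title, into 2 sets that were formed here and that the titles do not name. THY-Tau22 replicates 1, 2 and 5 and WT replicate 3 carried S numbers from 1, 2, 5 and 6 (set A), and THY-Tau22 replicates 3 and 4 and WT replicates 1 and 2 carried 3, 4 or 8 (set B). What the S numbers stand for is not given in the sources used here, but both sets held both genotypes, so that genotype could be compared within them.

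Tau binds and stabilises microtubules, mainly in axons. In tauopathies it detaches, becomes phosphorylated and aggregates inside neurons. Microglia, astrocytes and oligodendrocytes are known to respond to neuronal tau pathology through inflammatory, lysosomal and myelin genes. Single-cell libraries also carry a record of handling, since dissociation induces immediate early genes and lysis releases cytoplasmic RNA.

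The 8 libraries held 1121 to 2372 cells and 755945 to 1950714 UMIs each, with a median of 429 to 736.5 UMIs per cell. Any pair of female libraries shared 3 to 12 of 3000 barcodes. Cells were grouped as microglia-like (3985 cells), astrocyte-like (2690), oligodendrocyte-like (2414), endothelial-like (2021), neuron-like (684) and oligodendrocyte precursor (OPC)-like (635), with 1401 cells in smaller or unnamed groups. Doublet scoring marked 721 cells (5.21%), which were kept. The title of THY-Tau22 replicate 1 carries a TAO number that a WT male title carries too, and the titles do not say what this number marks.

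Labels were first checked against the sex-linked genes and the genes that relate to the transgene. Xist, which is expressed from the inactive X chromosome, gave 432 to 1817 UMIs per library, and no Y-linked gene of the 4 checked exceeded 2 UMIs. The tables have no entry for the human transgene. Mouse Mapt, which encodes tau (chr11:104231390-104332090, plus strand, GRCm38), stood at 364, 275, 189, 249 and 311 CPM (UMIs of a gene per 1000000 UMIs of its library, here unscaled) in THY-Tau22 replicates 1 to 5 and at 257, 305 and 263 in WT replicates 1 to 3. The WT values lay inside the THY-Tau22 range (278 ± 65.7 against 275 ± 26.2, SD, n = 5 and 3; exact two-sided permutation p = 0.929). In neuron-like cells, Mapt averaged 461 ± 129 CPM in THY-Tau22 and 359 ± 27.7 in WT (exact permutation p = 0.25). Thy1, whose promoter drives the transgene, had 3 to 31 UMIs per library in neuron-like cells and averaged 230 ± 75.9 CPM in THY-Tau22 against 131 ± 33.8 in WT (exact permutation p = 0.107). With 5 against 3 libraries this exact test cannot go below p = 0.0179, and neither gene separated the genotypes.

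Across all cells, no gene passed the test between genotypes. UMIs were summed per library and 10971 genes were tested with edgeR's quasi-likelihood test. Calling required an adjusted p (Benjamini-Hochberg) below 0.05 together with a log2 fold change of 0.5 or more in size. Calls numbered 0 (0%) with edgeR and 0 with DESeq2, and the smallest adjusted p was 0.9999 with edgeR. At an unadjusted p under 0.05 there were 121 genes (1.1%), 56 with higher and 65 with lower values in THY-Tau22. In 60 genes (0.547%) all 5 THY-Tau22 libraries lay above all 3 WT libraries, and in another 60 (0.547%) they lay below. Random genotype labels would put a share of about 0.05 of genes under that p. They would put a share of 0.0179, or 1 of 56 assignments, into complete separation in each direction. The observed counts lay below both shares, though genes are not independent. The count at that p depended on WT replicate 3, the only WT library of set A. It was 1103 of 10615 genes (10.4%) without that library, and 86 to 184 genes without any other library. The 95% interval of the log2 fold change lay within 1 of 0 on either side for 7433 genes (67.8%), so a change of 1 on the log2 scale lay outside the interval for these and inside it, in at least 1 direction, for the rest. Cell number and RNA per cell cannot be told apart in such sums.

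Genes with a small unadjusted p are given as values, 4 from the ranking over all genes and 2, Csf1 and Ifit3, as members of gene lists, and none of them passed correction. CPM of single genes are from here on scaled by edgeR's TMM factors and sums over gene lists are unscaled, and values are listed for THY-Tau22 replicates 1 to 5 and then WT replicates 1 to 3. Csf1 (chr3:107741048-107760469, minus strand), a growth factor of microglia, read 177, 98.8, 112, 153 and 117 CPM against 77.1, 94.3 and 95.9. Its lowest THY-Tau22 value lay just above the highest WT value, with a log2 fold change of 0.56 ± 0.25 (SE). Slc9a9 (chr9:94669909-95230445, plus strand), an endosomal sodium-proton exchanger, read 41.4, 34.2, 38.5, 37.7 and 34.8 CPM against 27.4, 21.6 and 20.4. The 2 groups did not overlap, and the THY-Tau22 libraries were close to one another (log2 fold change 0.71 ± 0.26). Nsa2, a ribosome biogenesis factor, read 62.7, 72.2, 42.0, 81.9 and 44.6 CPM against 35.3, 39.3 and 34 (0.72 ± 0.28). Epsti1, an interferon-responsive gene, ranged from 13.9 to 28.6 CPM against 10.2 to 11.8 (0.91 ± 0.35). These genes too showed no overlap, with the tighter values in WT. Golga7 (chr8:23241346-23257074, minus strand), which helps palmitoylate Ras proteins at the Golgi, had lower values in THY-Tau22, at 19.4, 13.9, 28.7, 19.5 and 20.7 CPM against 43.1, 45.2 and 29.3 (-0.90 ± 0.29). Its highest THY-Tau22 value stood beside WT replicate 3, the WT library of set A. Ifit3, an interferon-induced antiviral gene, ranged from 8.87 to 16.8 CPM against 19.7 to 24.6 (-0.87 ± 0.32), with 28% of a library's UMIs from 1 cell. The 2 interferon-responsive genes named here thus differed in direction.

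**Figure D1:**
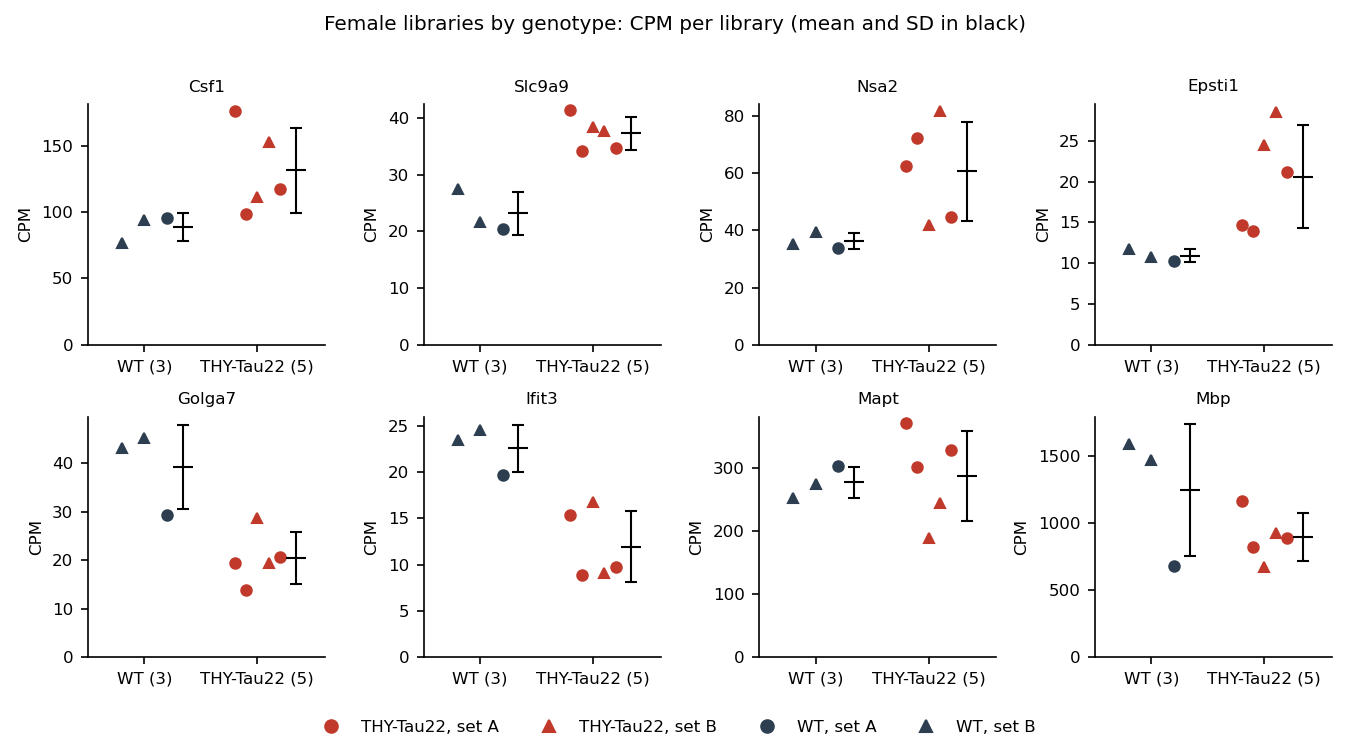
CPM of 8 genes in all cells of each female library, by genotype, with S number set A as circles and set B as triangles and the mean ± SD of each group in black. The genotypes do not overlap for Csf1, Slc9a9, Nsa2, Epsti1, Golga7 and Ifit3, none of which passed correction, and overlap for Mapt and Mbp.

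Several other genes near the top of the ranking drew on single cells. In at least 1 library, which could hold few UMIs of the gene, one cell gave over 25% of them for Galnt3 (1.57 ± 0.50), Angpt1 (1.45 ± 0.50), Ina (0.88 ± 0.34), Emb (2.17 ± 0.65), Ap3s2 (-1.80 ± 0.56), Dlgap2 (-1.64 ± 0.50), D10Wsu102e (-1.21 ± 0.39) and the long noncoding RNA 2900076A07Rik (-1.31 ± 0.39). Ap3s2 stood at 152 CPM in WT replicate 2 and at 9.09 to 24 in the others, and a single cell held 61% of its UMIs there. Gm10800, a predicted gene with repetitive sequence, read 127 and 174 CPM in WT replicates 1 and 2 and 35.1 to 62.2 in the other 6 libraries. Those 2 are the WT libraries of set B.

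Genes of the neuronal side of a tauopathy gave no test passed. Of 31 tau and microtubule genes, 16 had higher values in THY-Tau22, with a median log2 fold change of 0.04, against 49.4% of all genes and a median of -0.0039. Of 18 presynaptic genes 13 were higher (median 0.20), and of 16 postsynaptic genes 11 were higher (median 0.09). None of these 65 reached an unadjusted p under 0.05. Atp1b1, a sodium pump subunit, read 212, 355, 490, 413 and 230 CPM against 293, 206 and 196 (0.55 ± 0.29), with overlapping groups.

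Among microglial and immune genes, 4 of the 18 disease-associated microglia genes had an unadjusted p under 0.05, all higher in THY-Tau22, against 1.1% of all genes, while the list's median was 0.07. These were Csf1, the chemokine Ccl6 (0.76 ± 0.33), Cd52, a surface glycoprotein of leukocytes (1.40 ± 0.60), and Spp1, the secreted phosphoprotein osteopontin (1.57 ± 0.74). Cd52 read 424 CPM in THY-Tau22 replicate 4 and 39.5 to 90.1 in the other 7 libraries. One cell held 65% of a library's Spp1 UMIs, and Spp1 ranged from 11.4 to 78.7 CPM in THY-Tau22 and from 2.95 to 30.1 in WT. Replicate 4 also held most blood-derived RNA, with 2482 CPM over 5 red blood cell markers against 0.513 to 343 elsewhere and 99.2 CPM over 8 T or NK cell markers against 4.12 to 37.0 elsewhere, and the part of these cells in its Cd52 value was not tested. Homeostatic microglia genes had 4 of 12 higher and a median of -0.03, MHC class I genes 1 of 9 (-0.14), MHC class II genes 5 of 6 (0.31), interferon-stimulated genes 3 of 15 (-0.20), complement genes 6 of 9 (0.05) and chemokines and cytokines 9 of 14 (0.08).

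Glial, vascular and housekeeping lists leaned one way without a member called. Myelin genes were lower in 15 of 18 (median -0.16), blood-brain barrier genes in 17 of 19 (-0.21), ribosomal protein genes in 71 of 77 (-0.22), nuclear respiratory chain genes in 65 of 73 (-0.18) and antioxidant genes in 14 of 15 (-0.27). Heat shock chaperones were higher in 15 of 18 (0.16). Glycolytic and cholesterol synthesis genes were each higher in 5 of 16 (-0.16 and -0.13), iron storage and transport genes in 5 of 11 (-0.11) and lysosomal genes in 11 of 18 (0.07). The medians of the ribosomal and respiratory lists were near 0 once the S number set entered the fit (-0.01 and -0.00046).

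Genes that the study's main tables name for this model were chosen on these samples, and their values are therefore no independent evidence. Here, Fth1, the iron-storing ferritin heavy chain, had a log2 fold change of -0.26 ± 0.40, and the nuclear noncoding RNA Malat1 0.15 ± 0.38. For the myelin gene Mbp it was -0.47 ± 0.28. Cst3, the protease inhibitor cystatin C, stood at -0.39 ± 0.38, Apod, a lipid carrier, at -0.37 ± 0.32, the chaperone Hsp90aa1 at 0.18 ± 0.23, the desaturase Scd2 at -0.09 ± 0.23, transferrin Trf at -0.11 ± 0.27 and Zc3h13, a part of the m6A writer complex, at 0.12 ± 0.28. Each of these genes had overlapping groups. Fth1 read 1724 CPM in WT replicate 3 against 5738 and 4935 in WT replicates 1 and 2, and Malat1 read 71833 against 33554 and 26711.

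Within each of the 6 cell classes, no gene was called between genotypes with edgeR or with DESeq2. In microglia-like cells the calls were 0 of 4793 (0%), and 105 genes had an unadjusted p under 0.05 (2.19%). Without WT replicate 3, 470 of 4732 genes were under that p. Csf1 read 440, 329, 291, 331 and 324 CPM against 187, 177 and 235, so that its groups stood further apart here than over all cells (0.77 ± 0.25). Epsti1 ranged from 67.4 to 90.6 CPM against 32.2 to 43.2 (1.05 ± 0.34), on 6 to 35 UMIs per library. Cmtm3, a membrane protein of the chemokine-like family, ranged from 28.0 to 72.5 CPM against 7.20 to 24.1 (1.63 ± 0.47), with few UMIs in WT and the lowest value near the floor. The immediate early gene Fosb read 957, 713, 1112, 1042 and 1129 CPM against 1692, 2155 and 1215 (-0.76 ± 0.25). Of 21 immediate early genes in these cells 19 were lower, with a median of -0.28 and 2 at an unadjusted p under 0.05. Over all cells, immediate early genes summed to 12554 to 17477 CPM in set A and to 19066 to 24374 in set B. WT replicate 3, with the lowest WT value of Fosb, is the only WT library of set A. Disease-associated microglia genes had 7 of 15 higher and a median of -0.01, with Csf1 one of the 2 at an unadjusted p under 0.05.

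In astrocyte-like cells the calls were 0 of 3593 (0%), with 74 genes at an unadjusted p under 0.05 (2.06%). Nckap1, a subunit of the WAVE complex that drives actin branching, read 170, 141, 126, 156 and 163 CPM against 88.8, 57.2 and 65.2 (1.14 ± 0.33). The groups were well separated. The same gene in oligodendrocyte-like cells read 107, 152, 121, 128 and 138 CPM against 60.7, 12.4 and 91.9 (1.18 ± 0.41). Rbm41, an RNA-binding protein, ranged from 21.5 to 62.6 CPM in astrocyte-like cells against 5.20 to 9.86 (2.50 ± 0.73). Its WT values rest on very few UMIs, near the floor, so the size of this difference is uncertain. Oligodendrocyte-like cells had 0 calls of 2901 (0%) and 54 genes at an unadjusted p under 0.05 (1.86%). There Golga7 read 57.9, 22.7, 63.9, 57.0 and 60.1 CPM against 128, 130 and 122 (-1.23 ± 0.36), and the 3 WT libraries agreed closely across both S number sets.

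In endothelial-like cells the calls were 0 of 3412 (0%), with 67 genes at an unadjusted p under 0.05 (1.96%). Tmem160, a mitochondrial membrane protein, read 85.7, 75.5, 101, 126 and 86.7 CPM against 43.3, 29.5 and 23.8 (1.59 ± 0.43). All 5 THY-Tau22 libraries were clear of the WT libraries. Neuron-like cells, of which libraries held 25 to 199, had 0 calls of 1546 (0%) and 36 genes at an unadjusted p under 0.05 (2.33%). Ncdn, a neuronal regulator of synaptic signalling, read 843, 448, 412, 202 and 481 CPM against 69.1, 346 and 199 (1.39 ± 0.49), and its groups overlapped. Selenop, a selenium carrier protein, read 899 CPM in WT replicate 2 and 46.9 to 353 in the others (-1.86 ± 0.54).

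Myelin genes mostly had lower values in THY-Tau22 in the classes that do not make myelin, though no member was called. All 12 tested in microglia-like cells were lower (median -0.45, 5 at an unadjusted p under 0.05). The same held for 9 of 9 in astrocyte-like (median -0.60, 2 at that p), 9 of 9 in neuron-like (-0.99, 2) and 9 of 11 in endothelial-like cells (-0.66, 6). In oligodendrocyte-like cells 11 of 18 were lower, with a median of -0.06 and none at that p, and whether the classes differ was not tested. Mbp, which encodes myelin basic protein, averaged 5069 ± 773 CPM in oligodendrocyte-like cells of THY-Tau22 and 6103 ± 2219 in those of WT (-0.27 ± 0.27). In microglia-like cells it read 119, 62.9, 135, 104 and 74.7 CPM against 194, 237 and 139 (-0.90 ± 0.28). Every THY-Tau22 library lay below every WT library there, with replicate 3 of each genotype nearly meeting. In astrocyte-like cells Mbp ranged from 39.1 to 134 CPM against 99.95 to 219 (-0.60 ± 0.36), and the groups overlapped. Neuron-like cells of WT replicate 2 held 1383 CPM of Mbp, against 71.7 to 447 in the other 7 libraries. The sum over 10 oligodendrocyte markers in all cells overlapped between genotypes, at 19127 to 33226 CPM in THY-Tau22 and 19335 to 38764 in WT, and the part of free myelin RNA in these values was not tested.

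OPC-like cells gave 0 calls of 936 (0%), with 20 genes at an unadjusted p under 0.05 (2.14%), and were the class in which a difference between genotypes passed when the S number set was a term. Mbp read 485, 143, 118, 50.1 and 525 CPM against 490, 1001 and 1057 (-1.50 ± 0.44), on 1 to 59 UMIs per library. THY-Tau22 replicate 5 stood above WT replicate 1, so the groups overlapped. Epb41l2, a membrane-cytoskeleton linker, read 162, 71.5, 39.4, 652 and 297 CPM against 306, 455 and 1236 (-1.74 ± 0.51), and overlapped through THY-Tau22 replicate 4. With the set as a term, the genes called included both, at log2 fold changes of -1.77 and -1.86 and an adjusted p of 0.0222 each from edgeR. Without WT replicate 3, and with no set term, Mbp stood at -1.15 ± 0.60 and Epb41l2 at -0.61 ± 0.80, neither of them called. Libraries held 21 to 129 of these cells, with the 21 in WT replicate 2. Mbp is switched on as precursors mature, and also belongs to the myelin list above.

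**Figure D2:**
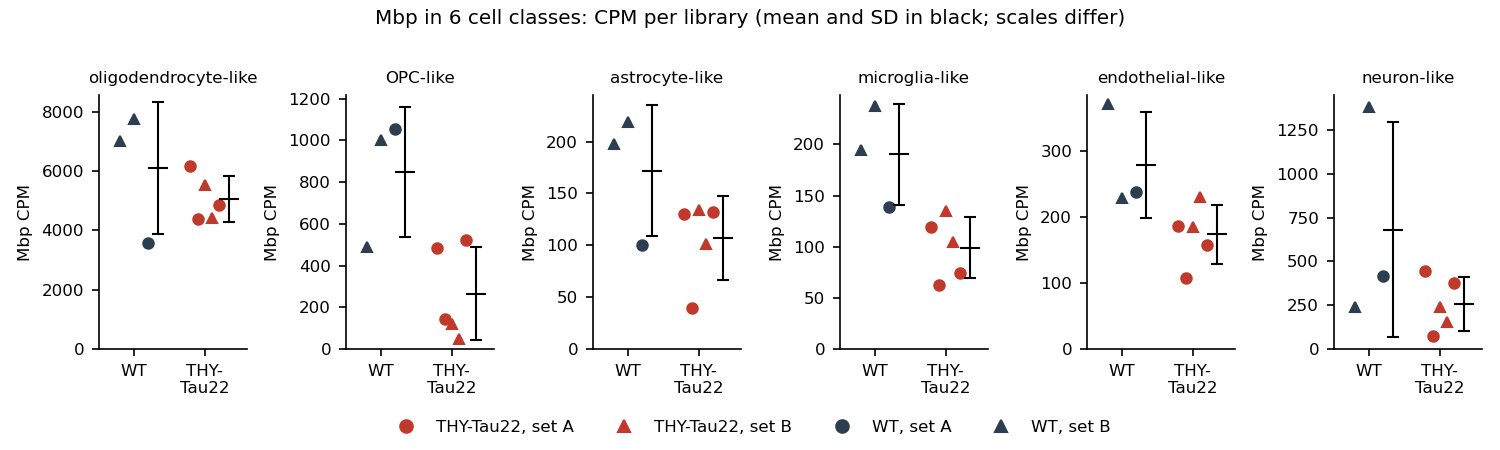
Mbp CPM in each of 6 cell classes of every female library, by genotype, with set A as circles and set B as triangles, the mean ± SD in black and a separate scale for each class. Every THY-Tau22 library lies below every WT library in microglia-like cells, the groups overlap in the other 5 classes, and 1 WT library reaches 1383 CPM in neuron-like cells.

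No share of a cell class passed the test between genotypes. Endothelial-like cells took 13.6% ± 1.68 (SD, n = 5) of cells in THY-Tau22 and 16.6% ± 1.64 (n = 3) in WT, which was the smallest p of the 6 classes (exact two-sided permutation p = 0.0714, adjusted 0.429). Microglia-like cells took 29.7% ± 4.53 against 26.8% ± 2.59, and OPC-like cells 4.90% ± 1.28 against 3.80% ± 1.80. Shares of astrocyte-like, oligodendrocyte-like and neuron-like cells differed by 0.0737, -0.181 and 0.0130 percentage points, and none of the 6 passed the test. The smallest p of this exact test is 0.0179, so after adjustment over 6 classes no single class could pass on its own. The test therefore cannot show that the shares were alike. An exact permutation of genotypes within S number sets gave p = 0.125 for the endothelial share, with 0.0417 the smallest p possible.

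Libraries were also compared between the S number sets. With genotype in the fit, 408 of the 10971 genes (3.72%) were called between the sets, 233 higher (2.12%) and 175 lower (1.6%) in set B, and DESeq2 called 633. The count rested on single libraries, with 0 calls without THY-Tau22 replicate 4, 5 without WT replicate 3, 32 without THY-Tau22 replicate 5 and 829 without THY-Tau22 replicate 3. It was also 0 without the 2 libraries whose titles carry the code MB22 (THY-Tau22 replicate 5 and WT replicate 3) and 0 with at least 500 genes per cell, where 908 and 1223 genes had an unadjusted p under 0.05. All 4 libraries of set B lay above all 4 of set A for 819 genes (7.47%) and below for 778 (7.09%). Among the called genes, 212 of the 233 and 162 of the 175 did not overlap, but the calls came from the same values. The set shares its libraries with the genotype comparison, and what distinguished the sets is not known.

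The libraries of the 2 sets differed as a whole in the RNA they held. The mitochondrial ribosomal RNAs took 17.4, 19.8, 18.8 and 23.1% of UMIs in THY-Tau22 replicates 1, 2 and 5 and WT replicate 3, and 12.7, 7.19, 11.6 and 4.66% in THY-Tau22 replicates 3 and 4 and WT replicates 1 and 2. Other mitochondrial RNA went the other way, at 0.540 to 0.798% in set A and 1.05 to 1.41% in set B. Ribosomal protein mRNA took 0.900 to 1.38% against 1.48 to 2.43%, and immediate early genes summed to 12554 to 17477 CPM against 19066 to 24374. None of these 4 measures overlapped between the sets (exact permutation p = 0.0286 each, the smallest that 4 against 4 libraries can give). The sets are not a factor of the labels, and these p-values take the grouping as given. By genotype all 4 overlapped (exact permutation p = 0.429 to 0.732), and in 3 of the 4, all but the immediate early genes, WT replicates 2 and 3 lay at opposite ends.

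**Figure D3:**
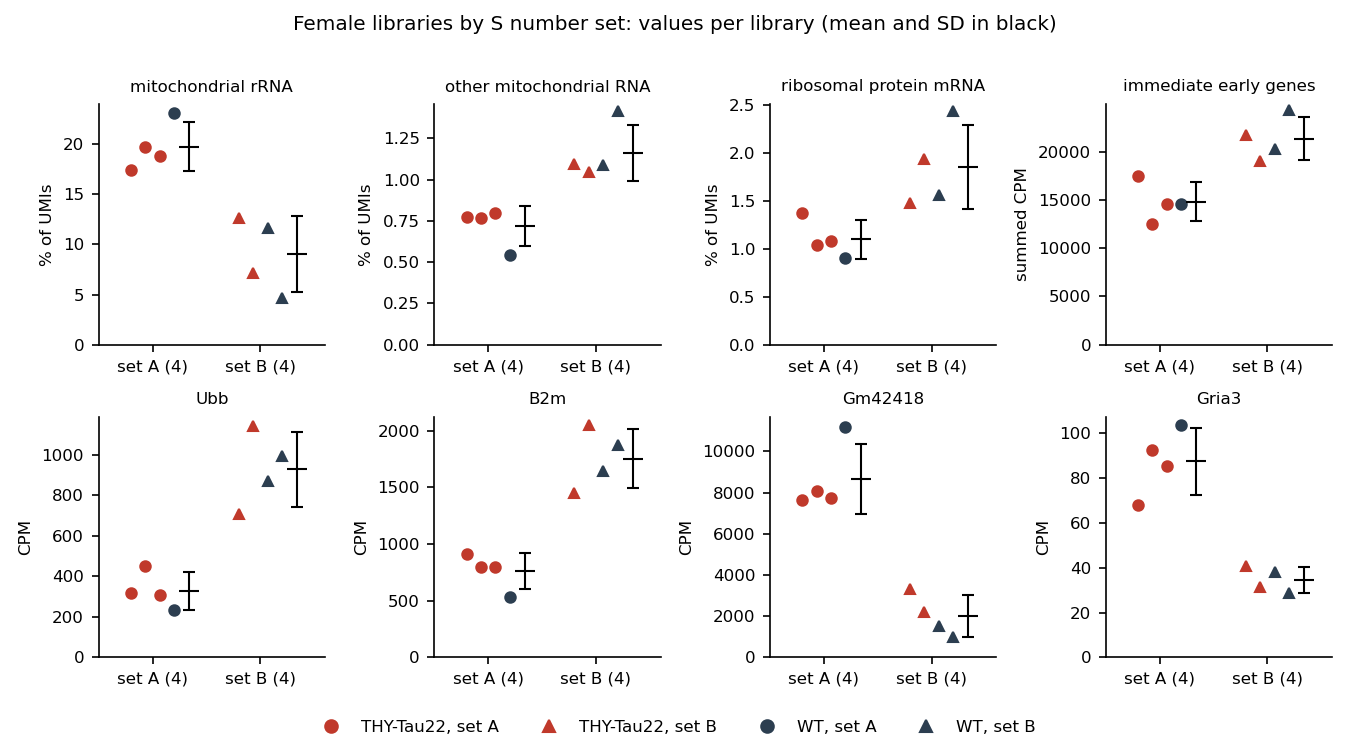
Values of 4 library measures (percent of UMIs or summed CPM) and the CPM of Ubb, B2m, Gm42418 and Gria3 in each female library, by S number set, with THY-Tau22 in red, WT in dark blue and the mean ± SD of each set in black. The sets do not overlap in any of the 8 panels, and both genotypes follow the same split.

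Genes higher in set B had many functions. Ubb (chr11:62551171-62553213, plus strand), a polyubiquitin gene induced by stress, read 318, 453, 308 and 232 CPM in set A and 707, 1142, 869 and 996 in set B, a log2 fold change of 1.59 ± 0.23 (edgeR adjusted p = 0.00963). The small heat shock protein Hspb1 rose by 1.54 ± 0.23, Cryab by 1.27 ± 0.27 and the co-chaperone Dnajb1 by 1.53 ± 0.29. B2m (chr2:122147686-122153083, plus strand), the light chain of MHC class I, read 535 to 909 CPM in set A and 1450 to 2048 in set B (1.29 ± 0.21), and the heavy chain H2-D1 rose by 1.03 ± 0.21. Against 2.12% of all genes called higher, called members included 11 of 77 ribosomal protein genes (70 higher, median 0.59) and 14 of 73 nuclear respiratory chain genes (71 higher, median 0.53), such as Cox8a (1.21 ± 0.23). Ribosomal protein genes share sequence with many pseudogenes, so the counts of single members are uncertain.

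Immune and glial genes were among those higher in set B. Against the same 2.12% of all genes, 6 of 18 disease-associated microglia genes were called, namely Apoe (0.99 ± 0.21), Cd52, Cd68 (1.58 ± 0.30), Fth1 (1.22 ± 0.25), Lyz2 and the adaptor Tyrobp (1.06 ± 0.24). MHC class I genes had 3 of 9 called, iron storage and transport genes 3 of 11, amyloid and Alzheimer risk genes 3 of 20, antioxidant genes 2 of 15 and lysosomal genes 2 of 18, all higher in set B. Cst3 rose by 0.98 ± 0.26, from 4396 to 6189 CPM in set A to 7952 to 15755 in set B. Fth1, Apoe, B2m and Cst3 are also among the genes the study's main tables list for genotype, with Apoe listed under astrocytes and B2m under endothelial cells. Over all cells, which is an unlike level for those 2, the differences between genotypes with the set in the fit were 0.14, 0.06, 0.26 and -0.05.

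Genes lower in set B included ribosomal RNA and neuronal transcripts. Gm42418 (chr17:39846958-39848788, plus strand), which is annotated over a ribosomal RNA repeat, read 7619, 8092, 7716 and 11169 CPM in set A and 3305, 2222, 1531 and 988 in set B (-2.11 ± 0.29, edgeR adjusted p = 0.00894). The mitochondrial ribosomal RNAs mt-Rnr1 and mt-Rnr2 fell by 1.76 ± 0.33 and 1.25 ± 0.32 on the log2 scale. The glutamate receptor gene Gria3 (chrX:41400854-41678601, plus strand) read 68.1, 92.5, 85.3 and 103 CPM against 40.6, 31.2, 37.9 and 28.5 (-1.34 ± 0.22), and Gria1 stood at -1.09 ± 0.26. Over all genes, 1.6% were called lower in set B and the median log2 fold change was -0.0047. Of 16 postsynaptic genes 15 were lower (median -0.71) with 2 called. Of 7 nuclear long noncoding RNAs 7 were lower (-0.92) with 3 called, among them Kcnq1ot1 (-1.18 ± 0.21) and Meg3 (-1.36 ± 0.33). Neuron-like cells made up 5.96% ± 2.06 of set A and 3.33% ± 1.24 of set B (SD, n = 4 each; exact permutation p = 0.0857), and their part in these values was not tested. Ccdc88a, an actin-binding signalling protein, read 809 to 1088 CPM against 301 to 464 (-1.29 ± 0.20).

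The log2 fold change between the sets varied with gene span and with summed exon length. Genes were matched by symbol to GENCODE on GRCm38, and 97.5% of those tested had a span. The median log2 fold change was 0.36 for the 1619 genes under 5 kb, 0.10 for those of 10 to 20 kb, -0.19 for 50 to 100 kb and -0.40 for the 658 of 200 kb or more. Called genes higher in set B had a median span of 4.81 kb and those lower in set B of 86.6 kb, against 24.9 kb over all genes. Their median summed exon lengths were 1.75 kb and 10.4 kb, against 4.59 kb over all genes, and which of the 2 lengths the difference followed was not tested. Pseudogenes were 12.8% of the first, 1.18% of the second and 5.42% of all. Between genotypes the medians ran the opposite way and over a smaller range, from -0.09 under 5 kb to 0.08 at 200 kb or more. With the set as a term they were 0.02 and 0.0012.

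**Figure D4:**
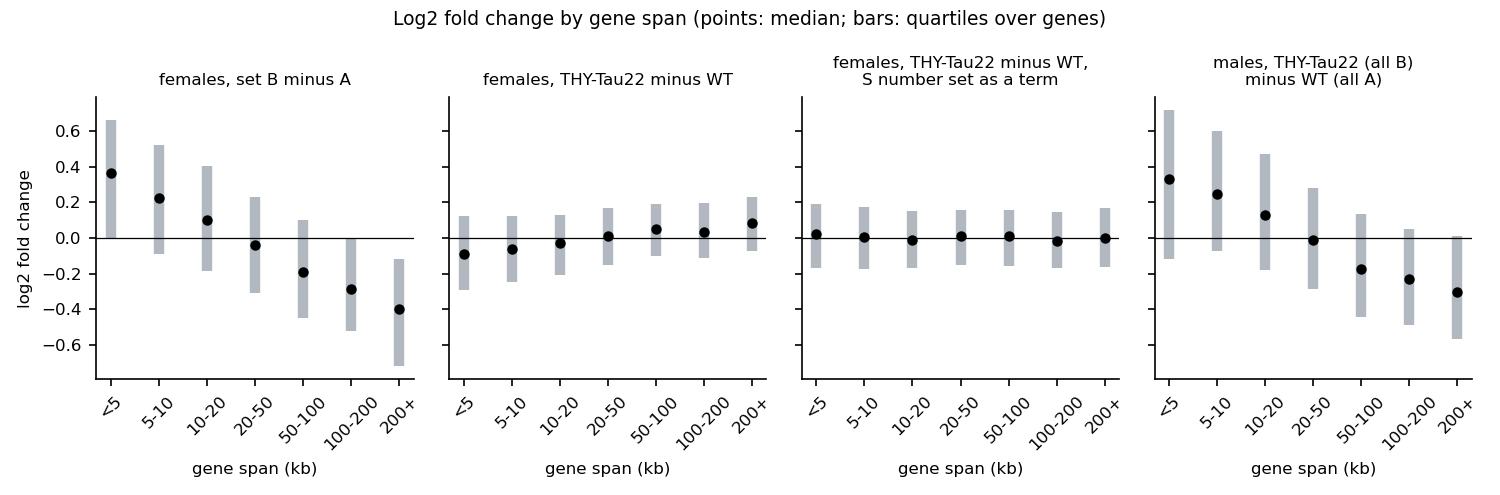
Log2 fold change by gene span in kb for the S number set in females, genotype in females without and with the set as a term, and genotype in males, with points at the median and bars over the quartiles of the genes in each bin. The set and the male comparison slope from 0.36 and 0.33 under 5 kb to -0.40 and -0.31 at 200 kb or more, and genotype in females with the set as a term is flat.

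The difference between the sets was spread over the classes. Calls between the sets numbered 103 of 4793 (2.15%) in microglia-like cells and 245 of 3593 (6.82%) in astrocyte-like cells. Oligodendrocyte-like cells gave 212 of 2901 (7.31%), OPC-like cells 47 of 936 (5.02%) and endothelial-like cells 38 of 3412 (1.11%). Neuron-like cells had 0 of 1546 (0%) with edgeR and 190 at an unadjusted p under 0.05; DESeq2 was not run between the sets within classes. Of the 233 genes higher in set B, 182 could be tested in microglia-like cells and 182 of them were higher there, as were 151 of 151 in endothelial-like, 142 of 142 in astrocyte-like and 132 of 132 in oligodendrocyte-like cells. These are the same UMIs divided by class, so the counts describe how widely the difference was spread and are no second test. Within one genotype, 85 genes were called between the sets over the 5 THY-Tau22 libraries. Over the 3 WT libraries 68 were called, but set A then holds WT replicate 3 alone, which was assumed to vary like the other 2.

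Placing the set in the genotype fit moved the medians of several lists and gave no call in all cells. Calls were 0 of 10971 with edgeR, and 186 genes had an unadjusted p under 0.05. Ribosomal protein genes went from 6 of 77 higher in THY-Tau22 (median -0.22) to 37 of 77 (-0.01), nuclear respiratory chain genes from 8 of 73 (-0.18) to 36 of 73 (-0.00046), antioxidant genes from 1 of 15 (-0.27) to 4 of 15 (-0.09) and MHC class I genes from 1 of 9 (-0.14) to 6 of 9 (0.09). Disease-associated microglia genes went from 11 of 18 (0.07) to 16 of 18 (0.37), with 5 at an unadjusted p under 0.05, and MHC class II genes from 5 of 6 (0.31) to 6 of 6 (0.65). Heat shock chaperones went from 15 of 18 to 17 of 18 higher (0.21), and the myelin median stayed at -0.16.

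**Figure D5:**
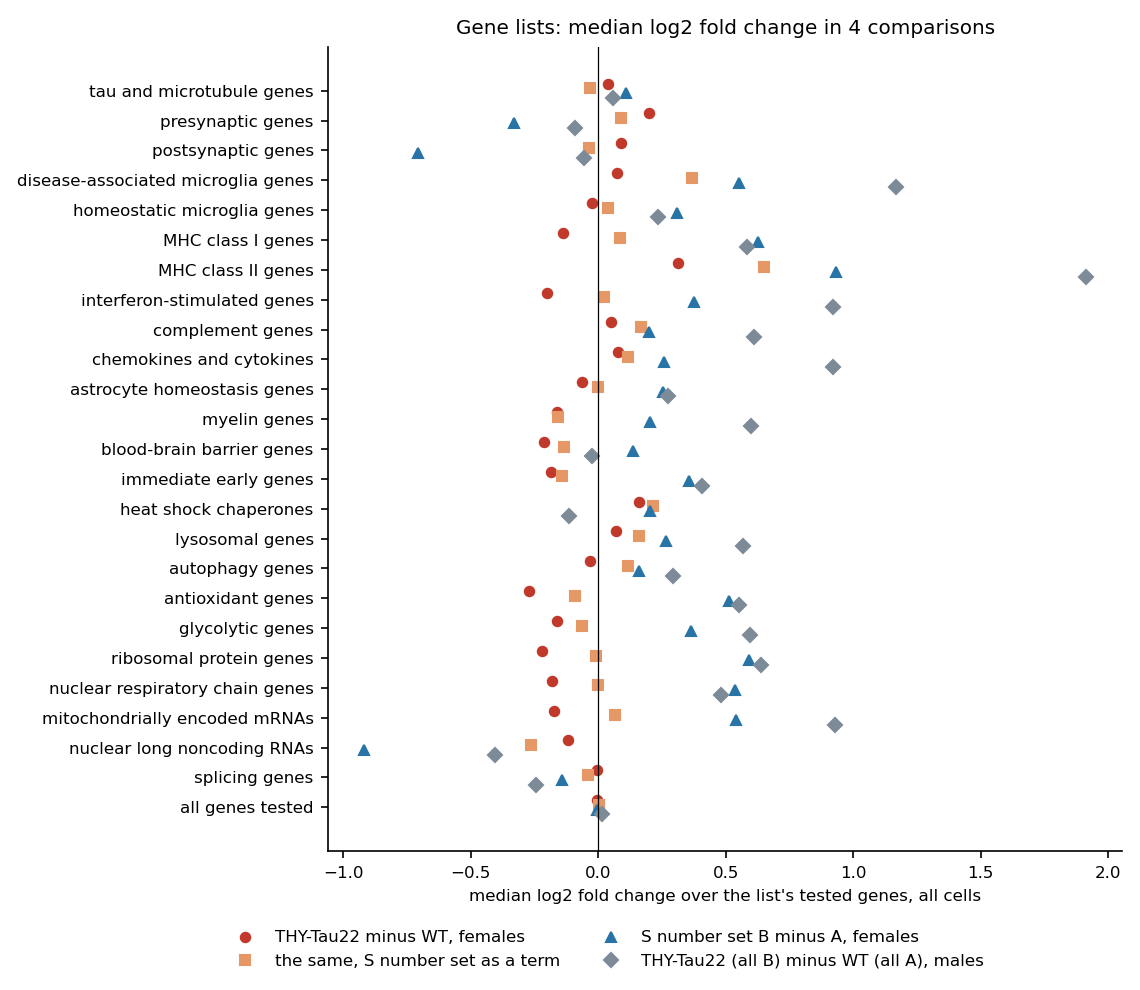
Median log2 fold change over the tested genes of 24 lists and of all genes, in all cells, for genotype in females, the same with S number set as a term, the set in females, and genotype in males. The ribosomal protein and nuclear respiratory chain medians lie at -0.22 and -0.18 for genotype, at -0.01 and -0.00046 with the set as a term and at 0.59 and 0.53 for the set.

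Single genes that stood apart between genotypes had similar values with the set as a term. With the set as a term the log2 fold change was 0.54 for Csf1, 0.74 for Slc9a9, 0.73 for Nsa2, 1.00 for Epsti1, -0.76 for Golga7 and -0.80 for Ifit3. Within set A, where WT replicate 3 is the only WT library, and within set B, with 2 against 2, Csf1 stood at 0.47 and 0.59, Slc9a9 at 0.86 and 0.62 and Golga7 at -0.66 and -0.86. None of them was called under any of these fits. Csf1, Slc9a9 and Golga7 did not overlap between genotypes in these same libraries. Their direction within each set followed from that and is no second test. Other genes, whose groups overlapped, went opposite ways in the sets. Mbp stood at 0.50 in set A and -0.96 in set B, Cst3 at 0.36 and -0.36 and Malat1 at -0.42 and 0.45, and myelin genes were higher in THY-Tau22 in 18 of 18 in set A and in 2 of 18 in set B. The oligodendrocyte-like share also changed direction. It averaged 19.6% in THY-Tau22 against 14.8% in WT in set A, and 15.2% against 19.6% in set B. The part of this share in the myelin values was not tested. The interaction of genotype and set was tested over the 10971 genes and gave 0 calls with edgeR, with 896 at an unadjusted p under 0.05.

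Male libraries were set beside these values because the S number sets were arranged differently there. All 3 WT males used were in set A and all 3 THY-Tau22 males in set B, so genotype and set cannot be told apart in males; 2 further male tables that shared nearly all barcodes were left out. Between the male genotypes edgeR called 0 of 11643 genes (0%), and 1792 had an unadjusted p under 0.05 (15.4%). This comparison came from a fit that also held the 8 female libraries, with no set term. The spread between female libraries of different sets therefore entered the male test, and the males were not fitted alone. Of the 233 genes called higher in set B in females, 229 had a positive log2 fold change between THY-Tau22 and WT males (median 0.83), and of the 175 called lower, 172 a negative one (median -0.68). Over all 10971 genes, 72.4% had the same sign in these comparisons, which share no library, and Pearson's r across genes was 0.603 (Spearman's rho 0.609). Genes are not independent replicates, and gene length and abundance are common to both. Against the male values, genotype in females had the same sign in 37.8% of genes (r = -0.243), and in 48.5% with the set as a term (r = 0.0205). Ubb, B2m and Gm42418 had male log2 fold changes of 1.17, 1.43 and -1.89.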

How the data were processed

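The authors, per the labels and their methods, prepared Drop-seq libraries, sequenced them on an Illumina instrument and deposited UMI counts per gene and barcode, without normalization, for 3000 barcodes a library. The submitters' processing notes name mm10; the aligner, the annotation and the choice of barcodes are not given in the sources used here. Barcodes with 200 to 7000 detected genes were kept (1121 to 2372 per library). Cells were clustered on 2500 variable genes and 19 principal components with leidenalg 0.10.2 at resolution 0.5, and named from at least 3 markers; class names were rebuilt here. Doublets were marked with Scrublet in scanpy 1.11.5 and kept. UMI counts were summed per library and tested in R 4.3.3 with edgeR 4.0.16 (TMM, filterByExpr, quasi-likelihood test), which was tested on simulated data, and with DESeq2 1.42.0 as an alternative. Errors of fold changes are standard errors. Shares and library measures were compared with exact permutation tests. Each library was taken as 1 mouse, since the study profiled 16 mice and the series has 16 libraries. On that reading the p-values measure the spread between mice and their libraries together. Genes named were those with the smallest p per comparison and direction, up to 4 members of each list, and the study's table genes. The libraries, lists and tests were chosen with earlier results of these data known. Some genes are not reported here. Replicate numbers follow accession order.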

Additional observations from a re-analysis of the deposited data

Results flagged for a closer look

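In each of 116 groups of 5 THY-Tau22 libraries, 1 for every gene and cell class named and every library measure and share, the most extreme library was compared with the rest (Dixon's criterion), and 10 groups had a library that stood apart. The criterion marks about 1 in 20 groups of independent, normally distributed values. These groups shared the same 5 libraries and mostly held chosen genes, so 10 of 116 cannot be set against that rate. Of the 10, 5 were high values of THY-Tau22 replicate 4 in all cells. Cd52 stood at 424 CPM against 45.6 to 90.1 in the other 4, Cd68 at 118 CPM against 22.8 to 49.0, Cryab at 873 CPM against 328 to 444, Dnajb1 at 253 CPM against 51.9 to 93.0 and Fth1 at 6578 CPM against 2409 to 3248. Hsp90b1, an endoplasmic reticulum chaperone, was low in the same library, at 1694 CPM against 2011 to 2059.

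The other 4 were single classes. Apod in endothelial-like cells stood at 210.0 CPM against 107 to 133, and Selenop in neuron-like cells at 353 CPM against 46.9 to 120, both in replicate 4. Csf1 in microglia-like cells stood at 440 CPM in replicate 1 against 291 to 331. Golga7 in oligodendrocyte-like cells stood at 22.7 CPM in replicate 2 against 57.0 to 63.9. For Csf1 and Golga7 the other 4 THY-Tau22 libraries lay on the same side of all 3 WT libraries.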

How the results depend on the processing

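In all cells, genotype calls stayed at 0 with DESeq2, RLE scaling, other cell filters, doublets removed, mitochondrial genes left out, either S number term or males in the fit. The genes at an unadjusted p under 0.05 did not stay at 121. They numbered 1103 of 10615 (10.4%) without WT replicate 3, where the smallest edgeR adjusted p was 0.0809. Without the 2 libraries coded MB22 they numbered 700 of 10347 (6.77%), with a smallest edgeR adjusted p of 0.190. Without the filter on low counts 27 genes were called, 25 of which took over 25% of a library's UMIs from 1 cell; the other 2 were Cd52 and Gm10800. Fits in set A only and in set B only were alternatives chosen after seeing the data. Set B only gave 8 calls, and Mgp stood at 2.26 in set A only. All of these carried that single-cell mark in at least 1 library, which could hold few UMIs of the gene. The mark thus does not show that a call came from 1 cell. Rpl21-ps13, called in set B only, had 120 UMIs and at most 2 in any cell. In microglia-like cells there were 12 calls without the filter and 2 in set A only, in astrocyte-like cells 1 and 4, in oligodendrocyte-like cells 3 and 3, and endothelial-like cells gave 7 and 3. Without the 2 libraries coded MB22 (THY-Tau22 replicate 5 and WT replicate 3), astrocyte-like cells gave 1 call, oligodendrocyte-like cells 2 and OPC-like cells 1. OPC-like cells gave 3 with the set as a term and 20 in set A only. Leaving out each library gave 0 to 0 calls in all, endothelial-like, neuron-like and OPC-like cells, 0 to 2 in microglia-like cells (1 without WT replicate 1, 2 without WT replicate 3), 0 to 1 in astrocyte-like and 0 to 3 in oligodendrocyte-like cells (both highest without WT replicate 3, where Gm42418 was called). Mt1 in astrocyte-like cells reversed in set A only, at 0.94 against -0.53.

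The 408 calls between the sets became 633 with DESeq2, 765 without the filter, 703 without the genotype term, 85 in THY-Tau22 only and 68 in WT only, with 1 WT library in set A (the last 2 chosen after seeing the data). They became 0 with at least 500 genes per cell and 0 without the MB22 libraries, with 1223 and 908 genes at an unadjusted p under 0.05. Leaving out each library gave 0 to 829 calls: 0 without THY-Tau22 replicate 4 (1809 at an unadjusted p under 0.05), 5 without WT replicate 3, 32 without THY-Tau22 replicate 5, 163 without WT replicate 1, 187 without THY-Tau22 replicate 2 and 829 without THY-Tau22 replicate 3. The cause was not tested. By class, an alternative chosen after seeing the data, the ranges were 5 to 247 in microglia-like, 19 to 412 in astrocyte-like, 26 to 284 in oligodendrocyte-like, 5 to 122 in endothelial-like, 0 to 9 in neuron-like and 10 to 68 in OPC-like cells. Of 2055 values of named genes under alternatives, 60 changed sign. Replicate numbers follow accession order and carry no pairing, and no paired analysis was run. The S number set was used as a term instead. THY-Tau22 replicate 5 and WT replicate 3 share the code MB22, and THY-Tau22 replicate 4 and WT replicate 2 share the number S8. What these codes mark is not given in the sources used here, and they were not used as pairs. A median of 429 to 736.5 UMIs per cell limits the low genes.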

Other observations

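In OPC-like cells of set A, where WT replicate 3 is the only WT library, 20 genes were called by edgeR between 3 THY-Tau22 libraries and it, a fit chosen after seeing the data. A single WT library carries no spread of its own and was assumed to vary like the THY-Tau22 libraries, so the values compare these libraries and not the genotypes. Lower in THY-Tau22 were, among others, Mbp (-1.37), Epb41l2 (-2.66), Enpp6 (-2.80), Bcas1 (-1.19), Nfasc (-2.01), Sirt2 (-1.22) and Fyn (-1.35), which oligodendrocytes express. Also lower were the endothelial gene Flt1 (-2.96), the transcription factor Klf4 (-2.02), the helicase Dhx9 (-2.07), the microtubule protein Map1b (-1.62), Frmd4a (-2.37), Lcorl (-1.62), Pdcd4 (-1.93) and Dynll2 (-1.35). Higher were Olig1 (1.05), a transcription factor of the lineage, the creatine kinase Ckb (1.36), mt-Cytb (1.27) and mt-Nd4 (1.32).

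The transcripts called between genotypes when the low-count filter was lifted included the immunoglobulin chains Igkc and Jchain, the globins Hba-a1, Hba-a2, Hbb-bs and Hbb-bt, the metalloproteinase Mmp12 and the B-cell chemokine Cxcl13. In set A only, Mgp, a calcification inhibitor of vessel walls and meninges, was called, and in set B only, the neuropeptide genes Npy and Scg2 were. Each took over 25% of the UMIs of at least 1 library from 1 cell, and that library could hold few, as with 1 UMI of Npy in WT replicate 1. Choroid plexus markers summed to 1.18 to 265 CPM in WT and 2.31 to 181 CPM in THY-Tau22 libraries, and fibroblast markers to 40.3 to 106 and 61.5 to 187 CPM.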
